A study of Rattus norvegicus with 8 samples.

Results

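The miR-183 cluster and the miR-200 family were examined in the medial vestibular nucleus (MVN), the brainstem nucleus that receives input from the balance organ of the inner ear. The 8 members were taken by name from the rat miRNAs on the array: rno-miR-182, rno-miR-183-5p and rno-miR-96-5p of the miR-183 cluster, and rno-miR-200a-3p, rno-miR-200b-3p, rno-miR-200c-3p, rno-miR-141-3p and rno-miR-429 of the miR-200 family. They were 8 of the 758 rat miRNAs measured. The choice rested on family membership, and earlier results of these data were known when it was made.

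The animals were male Sprague–Dawley rats aged 7 weeks. In the UVD group (unilateral vestibular deafferentation) the left labyrinth was destroyed by drilling into the vestibule and injecting ethanol. The sham operation (SO) group had the same left-sided approach, with the eardrum and the ossicles other than the stapes removed, but the vestibule was left closed. The 4 groups were UVD at 4 d, UVD at 4 h, SO at 4 d and SO at 4 h after surgery, with 2 arrays each, and each array carried the left MVNs of 3 pooled animals. The comparisons ask whether the level of a miRNA in the MVN follows the loss of input from the labyrinth, and whether it changes with time after surgery. With 2 pools per group the p-values measure only the spread between these pools.

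The 3 miRNAs of the miR-183 cluster are cut from neighbouring hairpins of one transcript and are best known from sensory cells: hair cells of the inner ear, photoreceptors and olfactory neurons. Changes in the seed of miR-96 cause progressive hearing loss in humans and in mice. The miR-200 family is abundant in epithelia, where it represses the transcription factors Zeb1 and Zeb2 and helps to hold cells in the epithelial state. It comes from 2 clusters, one with miR-200b, miR-200a and miR-429, the other with miR-200c and miR-141.

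The mature sequences show how closely the members resemble each other in the seed, the stretch that pairs with target mRNAs and that is given in capitals here (bases 2 to 8 from the 5′ end). They were taken from RefSeq (build GRCr8), which gave 5 of the 8 members, and rno-miR-200a-3p, rno-miR-200b-3p and rno-miR-429 are named only.
rno-miR-182: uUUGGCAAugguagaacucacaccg
rno-miR-183-5p: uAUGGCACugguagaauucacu
rno-miR-96-5p: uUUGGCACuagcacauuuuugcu
rno-miR-141-3p: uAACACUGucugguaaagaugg
rno-miR-200c-3p: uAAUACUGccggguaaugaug
The seeds of miR-182 and miR-96-5p differed by A8C alone (miR-182's base first, positions counted from 1 at the 5′ end), and those of miR-183-5p and miR-96-5p by A2U alone. The seeds of miR-182 and miR-183-5p differed at both places (U2A and A8C), although 18 of their first 21 bases were identical. Between miR-200c-3p and miR-141-3p the seed differed by U4C, and 17 of the first 21 bases were identical. None of these 5 seeds was shared with another of the 693 mature miRNAs in the RefSeq table. That table held no sequence under the names rno-miR-200a-3p, rno-miR-200b-3p and rno-miR-429. Whether those members share a seed with miR-200c-3p or miR-141-3p could therefore not be seen, and the seeds cannot be called unique within the miR-200 family.

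The genes lie on the minus strand of GRCr8, except that no strand was available for Mir429. Mir183, Mir96 and Mir182 fall within 3908 bases of chromosome 4 (59752246 to 59756153). Mir200c and Mir141 fall within 509 bases of the same chromosome (159209525 to 159210033), and Mir200b, Mir200a and Mir429 within 1908 bases of chromosome 5 (171929682 to 171931589). Each of the 3 loci overlaps a miRNA gene on the opposite strand (miR-3553, miR-3575 and miR-3548), and all 3 of these were detected on 0 of the 8 arrays.

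The scanner software detected 378 to 430 of the 758 miRNAs per array, and 0 miRNA spots were saturated. Summed signals before normalization lay between 526314 and 789939. All UVD arrays sat in one row of the slide and all SO arrays in the other, with the timepoints in separate columns, so slide position and group cannot be told apart. Markers of the labelled brain tissue were present: miR-124-3p, miR-9a-5p, miR-218a-5p and miR-128-3p were detected on 8 of 8 arrays, as were the oligodendrocyte miRNAs miR-219a-5p and miR-338-3p.

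The MVN samples split the members into 4 that were detected on every array and 4 that were detected on none. The entire miR-183 cluster was in the detected set, with miR-182, miR-183-5p and miR-96-5p called on 8 of 8 arrays. Of the miR-200 family, miR-141-3p alone was detected (8 of 8 arrays). miR-200c-3p, which is cut from the hairpin next to that of miR-141, was detected on 0 of 8 arrays, as were miR-200a-3p, miR-200b-3p and miR-429. Calling a miRNA detected where its signal exceeded 3 times its error also gave 8 of 8 arrays for each of the 4 detected members. This was no independent check, since the software's own call followed a like limit. Each probe of miR-141-3p that the software counted lay above 3 times its error, and each one it left out lay below. That rule could not test the other 4, since the software had set their signals to 0.1 with an error of 1.

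The individual spots gave the same division. Each miRNA had 16 spots on an array, 128 in all. For miR-183-5p and miR-96-5p, 128 of 128 spots were well above background, for miR-182 107 (83.6%), and for miR-141-3p 65 (50.8%). The 4 undetected members together had 3 of 512 spots well above background, all 3 belonging to miR-200b-3p (2.34% of its spots), against 15 of 3472 negative control spots (0.432%). Their background-subtracted spot signals averaged between -0.64 (miR-200a-3p) and 1.13 (miR-200c-3p) over the 8 arrays, and the negative controls averaged between -0.193 and 0.844 per array. The lowest total signal of any detected miRNA was 1.76 to 2.66 on the 8 arrays. The limit can be higher for these 4 members, whose probes have 8 spots each. A probe of miR-141-3p with 8 spots was not detected at a signal of 3.65 on the second UVD 4 d array. Levels below such limits would not have been seen.

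**Figure D1:**
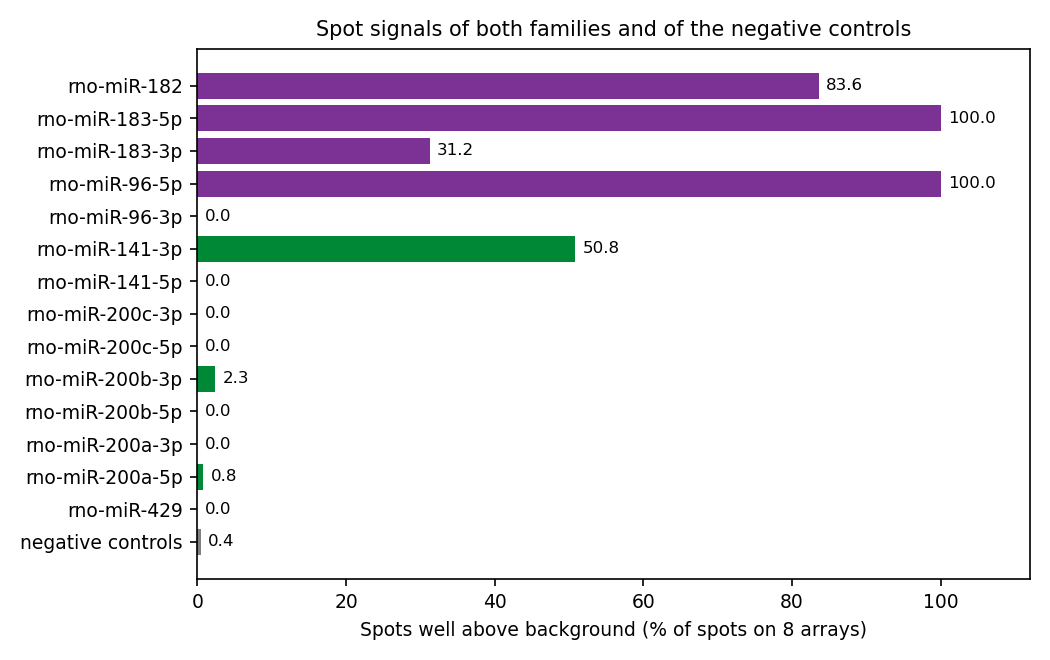
Share of spots well above background (x axis, % of the spots of the 8 arrays) for each member, the other arm of its hairpin where the array holds it, and the negative controls. Purple bars are the miR-183 cluster, green bars the miR-200 family and the grey bar the negative controls. miR-183-5p, miR-96-5p and miR-182 stood at 83.6% or more and miR-141-3p at 50.8%, while every other arm of the miR-200 family was at 2.34% or less.

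The opposite arms of the hairpins were mostly undetected. Only miR-183-3p, the other strand of the miR-183 hairpin, was detected (8 of 8 arrays), with 40 of 128 spots well above background. miR-96-3p, miR-141-5p, miR-200a-5p, miR-200b-5p and miR-200c-5p were detected on 0 of 8 arrays each.

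The levels of the detected members are given as total gene signal, the background-subtracted signal summed over the probes of a miRNA, after quantile normalization over the 8 arrays. Different probes bind with different strength, so the levels of 2 miRNAs are not set against each other. In whole-tissue RNA, fewer cells of a type and less of the miRNA per cell cannot be told apart.

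miR-182, cut from the last hairpin of the cluster, had normalized signals of 209 and 133 on the UVD 4 d arrays, 239.6 and 214 on the UVD 4 h arrays, 193 and 255 on the SO 4 d arrays, and 179.5 and 152 on the SO 4 h arrays. The lowest and the highest of the 8 arrays differed 1.92-fold. Both SO 4 h arrays and the second UVD 4 d array were the 3 lowest.

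miR-183-5p, cut from the first hairpin of the cluster, had 199.97 and 118 on the UVD 4 d arrays, 209 and 219 on the UVD 4 h arrays, 205 and 226 on the SO 4 d arrays, and 152 and 118 on the SO 4 h arrays. The same 3 arrays were low, and the 5 others lay within 199.97 and 226.

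miR-96-5p, the member tied to hearing loss, had 681 and 366 on the UVD 4 d arrays, 740.2 and 768 on the UVD 4 h arrays, 728 and 912 on the SO 4 d arrays, and 510.2 on both SO 4 h arrays. It varied 2.49-fold, the most within the cluster, and again those 3 arrays were lowest. Quantile normalization gave the SO 4 h arrays one tied value, and before normalization they stood at 499 and 544. The 2 probes of miR-96-5p and the 2 of miR-183-5p had all of their spots well above background on every array.

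The 3 cluster members varied less in proportion to each other than in level. The ratio of miR-182 to miR-183-5p ranged from 0.939 to 1.29 over the 8 arrays, that of miR-182 to miR-96-5p from 0.264 to 0.363, and that of miR-183-5p to miR-96-5p from 0.231 to 0.323. These ratios thus varied 1.37- to 1.40-fold, less than the 1.92- to 2.49-fold range of the miRNAs themselves. The same 3 arrays were lowest for every cluster member, with a gap to the 5 others for miR-183-5p and miR-96-5p but not for miR-182. For this reason no correlation was computed among the cluster members.

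miR-141-3p varied more over the arrays than the other detected members. Its normalized signal was 16.4 and 8.66 on the UVD 4 d arrays, 22.5 and 14.0 on the UVD 4 h arrays, 20.9 and 28.2 on the SO 4 d arrays, and 9.22 and 3.55 on the SO 4 h arrays, a 7.94-fold range. Its 3 lowest arrays were those that were low for the cluster. On the second SO 4 h array its unnormalized signal (4.31) was 3.31 times its error and 0 of its 16 spots were well above background, whereas the other 7 arrays had 8 to 13 such spots, so 1 of the 2 SO 4 h arrays measured it near the limit of detection.

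The number of probes summed for miR-141-3p also differed between arrays. It has 2 probes of 8 spots, and the software adds a probe only where that probe is itself detected. Both probes entered the total on the first UVD 4 d array, the first UVD 4 h array and both SO 4 d arrays, and only the brighter probe entered it on the other 4 arrays. The brighter probe alone read 15.3 and 9.57 on the UVD 4 d arrays, 16.3 and 12.3 on the UVD 4 h arrays, 17.1 and 21.2 on the SO 4 d arrays, and 8.03 and 4.31 on the SO 4 h arrays before normalization. The same 3 arrays were lowest by this probe.

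**Figure D2:**
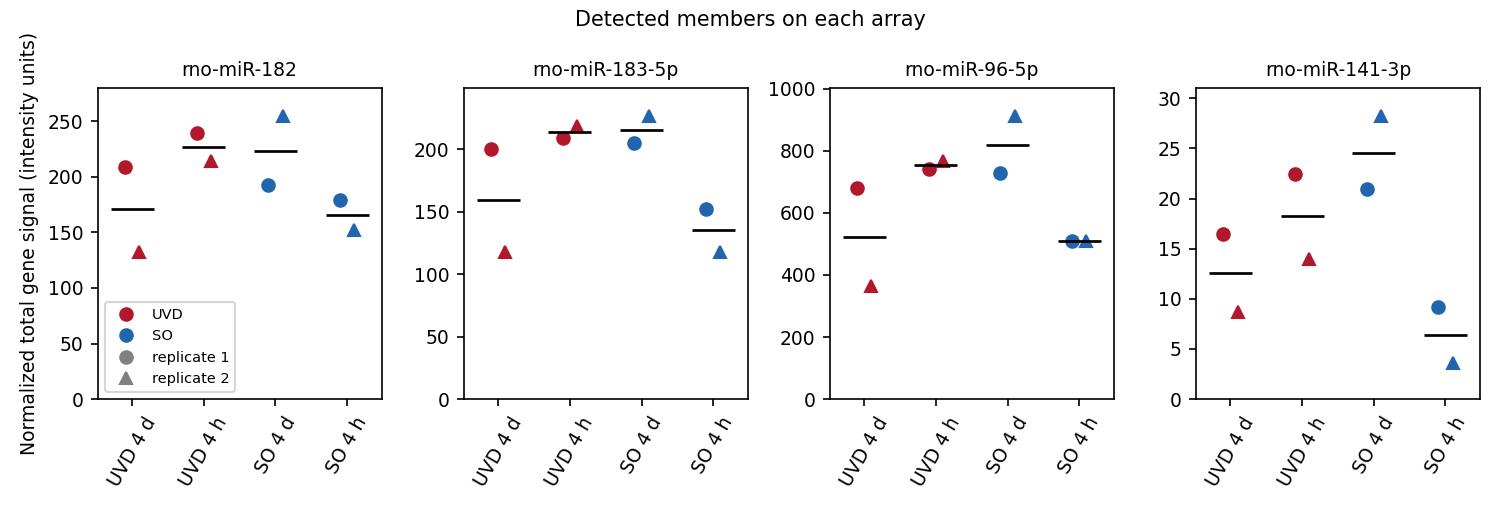
Normalized total gene signal (y axis, linear intensity units from 0) of the 4 detected members on each array. Red marks are UVD and blue marks SO arrays, circles are replicate 1 and triangles replicate 2 (numbers that pair nothing between groups), and black bars are the means of 2 arrays. In all 4 panels both SO 4 h arrays lie below both UVD 4 h and both SO 4 d arrays, and the second UVD 4 d array lies well below the first.

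At 4 h after surgery all 4 detected members had higher signals on both UVD arrays than on both SO arrays, and none passed the test across all miRNAs. miR-141-3p averaged 18.2 ± 6.01 in UVD and 6.39 ± 4.01 in SO (SD, n = 2 each), a log2 fold change of 1.63 (SE 0.57, 95% interval 0.17 to 3.09, limma adjusted p = 0.256).

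The miR-183 cluster showed smaller differences at 4 h. miR-183-5p averaged 214 ± 7.15 in UVD and 135 ± 24.1 in SO, a log2 fold change of 0.67 (SE 0.27, adjusted p = 0.297). miR-96-5p averaged 754 ± 19.3 in UVD and 510.2 in SO, where both arrays were tied, a log2 fold change of 0.56 (SE 0.30, adjusted p = 0.4). miR-182 averaged 227 ± 17.8 in UVD and 166 ± 19.4 in SO, a log2 fold change of 0.46 (SE 0.26, adjusted p = 0.436), which was 0.19 with normexp background correction and 0.24 with the authors' normalized values. The 95% intervals of all 3 included 0, the lowest reaching from -0.20 to 1.11 (miR-182).

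Among the 422 tested miRNAs 2 were called at 4 h at an adjusted p under 0.05 (0.474%), and 0 of the 4 members were. Signals that did not overlap, higher in UVD, were found for 4 of 4 members and for 22.5% of the tested miRNAs. The median log2 fold change was 0.62 over the 4 members and -0.01 over all tested miRNAs. Here and in the later comparisons the 4 members are not independent observations. The miR-183 cluster comes from one transcript, and the same arrays were lowest for all 4. The value of miR-141-3p at 4 h, 1.63, depended on the signal used and on constants added to it. It was 0.18 with normexp background correction, 0.28 with the authors' normalized values and 0.61 with a pseudocount of 16. It was 1.39 with both probes summed on every array, 0.94 without the second SO 4 h array and 2.32 without the first.

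At 4 d the means were lower in UVD than in SO for all 4 members, again with none passing the test. miR-141-3p averaged 12.6 ± 5.50 in UVD and 24.6 ± 5.13 in SO (SD, n = 2 each), a log2 fold change of -1.03 (SE 0.57, adjusted p = 0.745), which was -0.16 with normexp, -0.22 with the authors' normalized values and -0.51 with the pseudocount. miR-96-5p averaged 523 ± 223 in UVD and 820.0 ± 129 in SO, a log2 fold change of -0.71 (SE 0.30, adjusted p = 0.745). Those were the 2 members with the widest spread between the UVD pools relative to their means.

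The other members of the cluster had smaller differences at 4 d. miR-183-5p averaged 159 ± 58.0 in UVD and 216 ± 15.0 in SO, a log2 fold change of -0.49 (SE 0.27, adjusted p = 0.745). miR-182 averaged 171 ± 53.8 in UVD and 224 ± 43.8 in SO, a log2 fold change of -0.41 (SE 0.26, adjusted p = 0.759). No tested miRNA was called at 4 d (0% of 422 by limma, with 16 at an unadjusted p under 0.05). Lower signals in UVD without overlap were found for miR-183-5p, miR-96-5p and miR-141-3p, 3 of 4 members, and for 17.3% of the tested miRNAs. For miR-182 the first UVD 4 d array (209) lay between the SO 4 d arrays. The median log2 fold change was -0.60 over the members and -0.02 over all tested miRNAs.

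These values at 4 d depended on the second UVD array. Without it the log2 fold changes were -0.08 for miR-182, -0.11 for miR-183-5p, -0.26 for miR-96-5p and -0.56 for miR-141-3p. For miR-182 and miR-183-5p the first UVD 4 d array lay within the spread of the SO arrays or just under it.

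**Figure D3:**
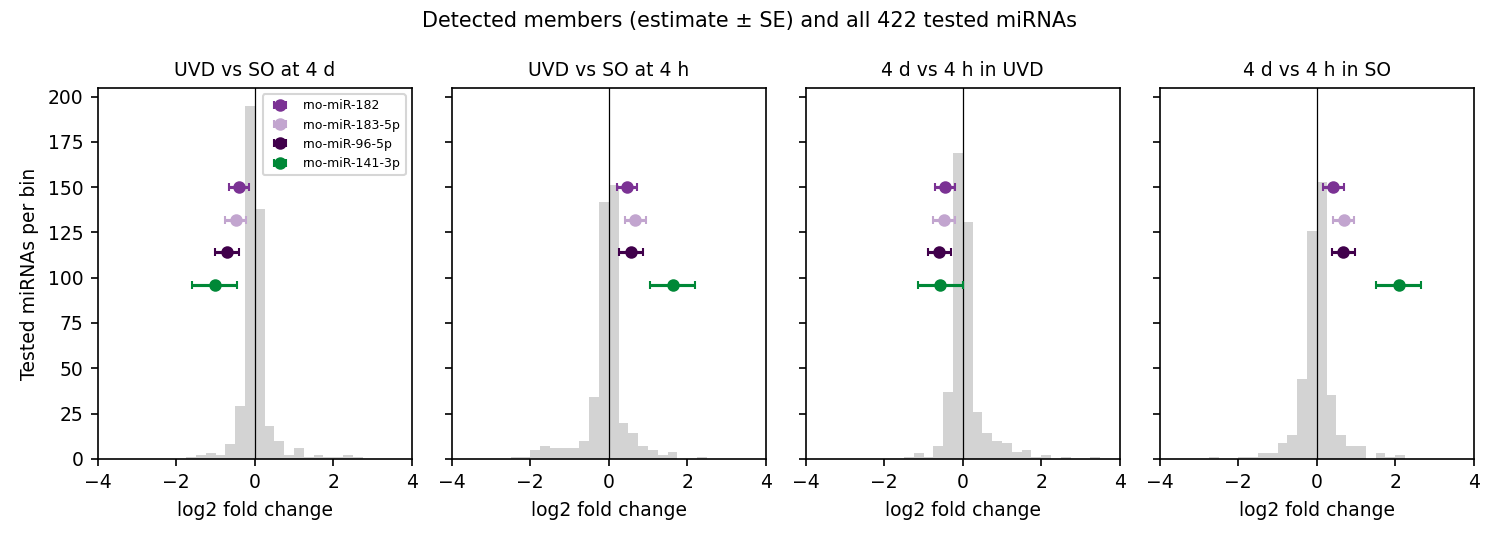
log2 fold changes (x axis) of the 4 detected members as coloured points with bars of ± SE, over grey histograms (y axis, miRNAs per bin) of all 422 tested miRNAs in the 4 pairwise comparisons. The height of a coloured point has no meaning. The members lie left of 0 for UVD vs SO at 4 d and for 4 d vs 4 h in UVD, and right of 0 for UVD vs SO at 4 h and for 4 d vs 4 h in SO.

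In SO animals all 4 detected members had higher signals at 4 d than at 4 h. miR-141-3p averaged 24.6 ± 5.13 at 4 d and 6.39 ± 4.01 at 4 h (SD, n = 2 each), a log2 fold change of 2.09 (SE 0.57, adjusted p = 0.148). The cluster members had log2 fold changes of 0.69 (miR-183-5p, SE 0.27, adjusted p = 0.208), 0.68 (miR-96-5p, SE 0.30, adjusted p = 0.25) and 0.42 (miR-182, SE 0.26, adjusted p = 0.412). 0 of the 4 members passed the test, and 7 of the 422 tested miRNAs did (1.66%). The 4 d arrays lay above the 4 h arrays without overlap for 4 of 4 members and for 25.6% of the tested miRNAs. Without the second SO 4 h array the value of miR-141-3p was 1.40, and it was 0.27 with normexp, 0.39 with the authors' normalized values and 0.86 with the pseudocount.

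In UVD animals the 4 detected members had lower mean signals at 4 d than at 4 h. The log2 fold changes were -0.45 for miR-182 (SE 0.26, adjusted p = 0.42), -0.48 for miR-183-5p (SE 0.27, adjusted p = 0.413), -0.60 for miR-96-5p (SE 0.30, adjusted p = 0.376) and -0.57 for miR-141-3p (SE 0.57, adjusted p = 0.651). None of the tested miRNAs was called (0% of 422 by limma, with 65 at an unadjusted p under 0.05). The 4 d arrays lay below the 4 h arrays without overlap for 3 of 4 members (the miR-183 cluster) and for 25.4% of the tested miRNAs. Without the second UVD 4 d array the values were -0.12 for miR-182, -0.10 for miR-183-5p, -0.15 for miR-96-5p and -0.11 for miR-141-3p. With normexp the value of miR-141-3p was -0.075, and with the authors' normalized values -0.11.

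The difference between the time changes, UVD minus SO, was -0.87 for miR-182 (SE 0.37), -1.16 for miR-183-5p (SE 0.38), -1.27 for miR-96-5p (SE 0.42) and -2.66 for miR-141-3p (SE 0.81) on the log2 scale, each with a limma adjusted p of 0.492. No member passed the test, and 1 of the 422 tested miRNAs did (0.237%). At an unadjusted p under 0.05 it was 3 of the 4 members and 37 of all tested miRNAs. The value of miR-141-3p rests in part on the second SO 4 h array, where 0 of its 16 spots were well above background, and it was -1.97 without that array, -0.34 with normexp and -0.49 with the authors' normalized values. The median was -1.22 over the members and 0.02 over all tested miRNAs. This quantity is made of the same 8 arrays as the 4 pairwise comparisons, so the 5 sets of values are not independent.

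Averaged over both timepoints, the differences between UVD and SO were near 0 for the cluster and small against their error for miR-141-3p. The log2 fold changes were 0.02 for miR-182 (SE 0.18, 95% interval -0.44 to 0.49), 0.09 for miR-183-5p (SE 0.19, -0.39 to 0.58), -0.07 for miR-96-5p (SE 0.21, -0.61 to 0.47) and 0.30 for miR-141-3p (SE 0.41, -0.73 to 1.33). 0 of the 4 members and 0% of the 422 tested miRNAs were called by limma (55 miRNAs had an unadjusted p under 0.05, none of them a member).

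**Figure D4:**
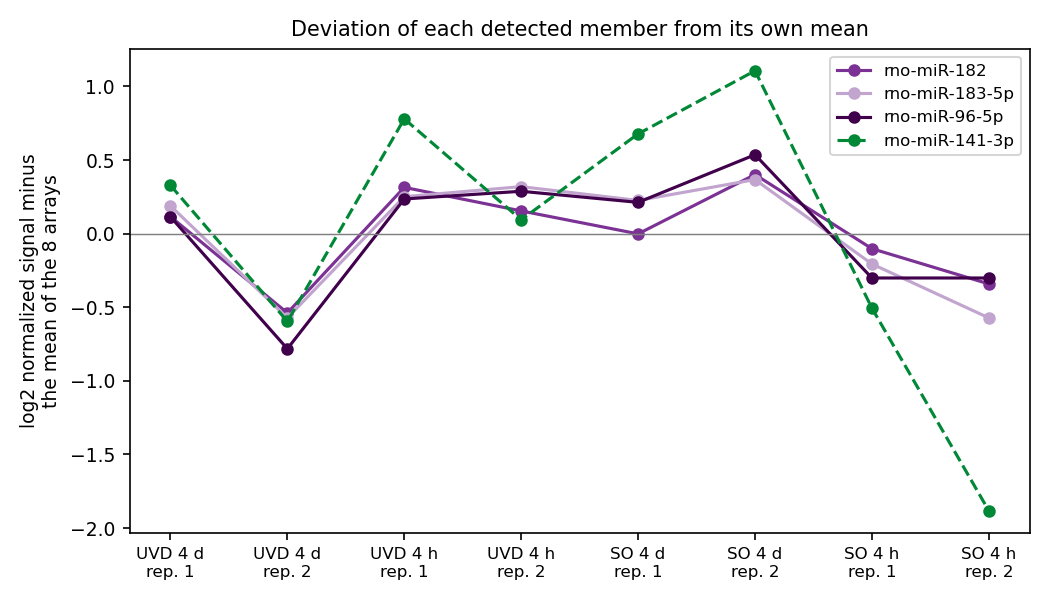
log2 normalized signal of each detected member minus its own mean over the 8 arrays (y axis) on each array (x axis). Solid purple lines are the 3 members of the miR-183 cluster and the dashed green line is miR-141-3p, and lines only join the arrays to show parallel courses. All 4 lines dip on the second UVD 4 d array and on both SO 4 h arrays, with the deepest point for miR-141-3p on the second SO 4 h array.

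The other arm of the miR-183 hairpin, miR-183-3p, was low on some of the same arrays. It had 7.81 and 1.33 on the UVD 4 d arrays, 7.31 and 10.5 on the UVD 4 h arrays, 7.81 and 10.1 on the SO 4 d arrays, and 7.62 and 6.69 on the SO 4 h arrays. The second UVD 4 d array was again the lowest, but the first SO 4 h array lay above the first UVD 4 h array. On the second UVD 4 d array 1 of its 4 probes entered the total and on the other arrays 2 did.

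The lists of marker miRNAs for other cell types moved in part with the members. For surface and gland epithelium, the home tissue of the miR-200 family, 4 of 6 listed miRNAs were detected on all 8 arrays and miR-205, a marker of stratified epithelium, on 0 of 8. The summed normalized signal of that list was 725 to 767 on the UVD 4 d arrays, 657 to 665 on the UVD 4 h arrays, 645 to 737 on the SO 4 d arrays and 583 to 599 on the SO 4 h arrays. It was lowest on the SO 4 h arrays, where the members were low, but not on the second UVD 4 d array (725), and within the list miR-203a-3p was higher on the SO 4 h arrays (4.14 and 3.83) than on the UVD 4 h arrays (1.45 and 1.0). Of the choroid plexus and ciliated ependyma list, the epithelia lining the ventricle beside the nucleus, 7 of 8 miRNAs were detected on all arrays. Its sum was 7465 to 9310 on the UVD 4 d arrays, 5989 to 6134 on the UVD 4 h arrays, 6196 to 6501 on the SO 4 d arrays and 5289 to 5475 on the SO 4 h arrays, again lowest in SO at 4 h and not low on the second UVD 4 d array (7465). Most of this sum came from miR-204-5p, miR-34b-5p and miR-34c-5p, and not all of the list followed it: miR-1298 was 18.6 and 16.1 on the UVD 4 h arrays, against 25.3 and 22.7 on the SO 4 h arrays, and miR-448-3p 46.0 and 55.5 on the UVD 4 h arrays, against 67.3 and 70.0 on the SO 4 h arrays. All 4 muscle miRNAs were detected on every array, with sums of 1771 to 2356 on the UVD 4 d arrays, 2127 to 2145 on the UVD 4 h arrays, 2022 to 2380 on the SO 4 d arrays and 1599 to 2001 on the SO 4 h arrays. The muscle sums were lowest on the first SO 4 h array and the second UVD 4 d array (1771), both among the arrays low for the members. Most of this sum was miR-133b-3p. On the second UVD 4 d array miR-206-3p was at its highest (111, against 25.8 to 88.4 on the 7 others), while miR-1-3p (17.4) and miR-133a-3p (115) were low. Blood and leukocyte miRNAs (7 of 7 detected on all arrays) summed to 4599 to 4804 on the UVD 4 d arrays, 3858 to 4132 on the UVD 4 h arrays, 4311 to 4493 on the SO 4 d arrays and 3806 to 3824 on the SO 4 h arrays. Most of that sum was miR-150-5p, and miR-223-3p, a miRNA of neutrophils and other myeloid cells, was 266.6 on the second UVD 4 d array against 61.8 to 107 on the 7 others. The neuronal sum ranged from 46417 to 53981 over the 8 arrays, and the oligodendrocyte sum was 41624 on the second UVD 4 d array against 49781 to 55656 on the 7 others. The part of these cell types in the members' values was not tested. The study picked miR-31a-5p, miR-204-5p, miR-133a-3p, miR-133b-3p, miR-206-3p, miR-218a-5p and miR-219a-5p of these lists from the same arrays.

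Outside both families, the 3 tested miRNAs with the most similar course over the 8 arrays were picked for each detected member by Pearson's r of log2 normalized signal. For miR-182 they were miR-133a-5p (r = 0.89), miR-34a-3p (0.86) and miR-455-3p (0.85). miR-183-5p was closest to miR-140-5p (r = 0.91), miR-34a-3p (0.88) and miR-133a-5p (0.84), and miR-96-5p to miR-133a-5p (r = 0.90), miR-455-3p (0.88) and miR-191a-3p (0.88). Thus miR-133a-5p stood among the 3 for every member of the cluster. This is not a repeated finding, since the cluster members had the same 3 lowest arrays. The normalized signal of miR-133a-5p was low, 6.95 to 15.0 over the 8 arrays. For miR-141-3p they were miR-30c-5p (r = 0.93), miR-34b-3p (0.89) and miR-375-3p (0.84). These values describe 8 arrays in 4 groups that were all normalized together, and they carry no test. Several of these miRNAs hardly varied: the standard deviation of log2 signal was 0.06 for miR-30c-5p and 0.08 for miR-140-5p, against 0.97 for miR-141-3p and 0.39 for miR-183-5p.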

How the data were processed

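The left MVNs of 3 rats were pooled per array, total RNA was labelled with Cy3 and hybridized to 1-colour Agilent rat miRNA arrays, and 8 arrays in 4 groups of 2 were analysed. The intensities were extracted by the authors with Agilent Feature Extraction 10.7.3.1, which subtracted background, summed spots into a total gene signal per miRNA and set undetected miRNAs to 0.1. The authors' own quantile-normalized intensities, deposited on a linear scale, served as an alternative only. These totals were brought to a common distribution by quantile normalization, raised to 1 where lower, and their log2 values fitted in limma 3.58.1 (R 4.3.3) with 1 mean per group and all 8 arrays sharing the estimate of spread. A miRNA entered the test if some group had it detected on each of its 2 arrays (422 miRNAs), with Benjamini-Hochberg adjustment over all of them and a threshold of 0.05, and the scripts were tested on simulated data. The other 4 members failed that filter and have no fold change. For arrays, the number per group limits the precision.

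All 8 members were named whatever their values, with the other arms of their hairpins and, for each detected member, the 3 miRNAs of other families with the highest correlation. The members, marker lists and comparisons were chosen with earlier results of these data known. Alternatives covered the scaling, the floor or a pseudocount of 16, normexp background correction with an offset of 50 (on the median spot signal, since the mean was not used here), the authors' values, the filter, the variance model, the methods' t-test, a replicate block and each array left out. Summing all probes of a miRNA was added after the data were seen.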

Additional observations from a re-analysis of the deposited data

How the results depend on the processing

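None of the 4 detected members passed the threshold in any of the 6 comparisons under any alternative tried. Over the 5 comparisons other than the one over both timepoints, 416 values of members under alternatives held 0 reversals, and the smallest adjusted p was 0.0626. Many of these values could not reverse. The filters, the variance model, the replicate block and the t-test kept the main fold change. Leaving out an array from outside a pairwise comparison kept it as well. The UVD versus SO difference over both timepoints had no stable sign in 12 of 84 values: for miR-182 it became -0.016 after 75th percentile scaling on the detected miRNAs, -0.041 without normalization, -0.036 with normexp and -0.055 with the authors' values, and -0.14 to 0.19 with each array left out. Leaving out each array gave -0.10 to 0.28 for miR-183-5p, -0.30 to 0.15 for miR-96-5p, -0.042 to 0.65 for miR-141-3p and -1.22 to 0.057 for miR-183-3p, which was 0.011 with normexp and 0.0069 with the authors' values. The size of miR-141-3p's values depended most on the signal used and on constants added to it. With normexp and the authors' values its log2 fold change at 4 h was as low as 0.18 and its difference of time changes -0.34. The normexp offset of 50 and the pseudocount of 16 shrink the log ratios of low signals, and its normalized signals were 3.55 to 28.2.

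The number of called miRNAs among the 422 was small and moved with the setting. For UVD versus SO at 4 h it was 2, 1 with either 75th percentile scaling, without normalization or with the raised floor, 6 with the pseudocount or with trend and robust estimation, 7 with normexp, 9 with all probes summed, 0 by the methods' t-test, and 1 to 10 with an array left out. At 4 d it was 0, 1 with either scaling or without normalization, 2 without the filter, and 0 to 2 with an array left out. Over both timepoints it was 0, 2 with either scaling, without normalization or without the filter, and 0 to 7 with an array left out. For 4 d versus 4 h in UVD it was 0, 1 with either scaling or without normalization, 2 without the filter, and 0 to 11 with an array left out. In SO it was 7, 1 with either scaling, without normalization or with the raised floor, 2 without the filter, 2 with the replicate block, 11 with all probes summed, 19 with the authors' values, 21 with normexp, 0 by the methods' t-test, and 1 to 12 with an array left out. For the difference of time changes it was 1, 2 with either scaling or without normalization, 3 without the filter, 0 with normexp, the authors' values, trend and robust estimation or all probes summed, and 0 to 7 with an array left out. The cause was not tested.

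Deviations of same-numbered arrays from their group means correlated between -0.25 and 0.19, so the numbers do not pair the pools, and the replicate block changed no member's call. The methods' t-test put miR-183-5p and miR-96-5p under an unadjusted 0.05 at 4 h, but for miR-96-5p it took the SO 4 h spread as 0, since quantile normalization had tied 2 arrays that read 499 and 544 before it. At the looser limit of the methods 4 of 4 members passed the t-test for UVD versus SO at 4 h and 3 of 4 for 4 d versus 4 h in SO. In the other comparisons it was run on 0 of 4 passed. The share of all tested miRNAs under these unadjusted limits is not given here, so the member counts cannot be judged against it. After Benjamini-Hochberg adjustment 0 of 4 passed in every comparison. Scaling also moved the median of all tested miRNAs, at most for the difference of time changes, where it was 0.31 without normalization and 0.02 with it on the log2 scale.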
